A study of Danio rerio with 4 samples.

Results

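The genes described here encode the enzymes that remove superoxide and peroxides and the glutathione and thioredoxin systems that keep them reduced. They were taken by symbol, ignoring case, as the genes whose symbol starts with gpx, gst, prdx, sod, txn or hmox, or is cat, nqo1, gclc, gclm, gsr or srxn1, which gave 62 of the 32105 genes in the table of counts. The data come from 4 RNA libraries of male zebrafish skin: 1 of 5 months and 1 of 30 months, both of the strain AB JxTu, and 2 of 24 months (replicates 1 and 2), both of AB JxTu Tg(wt1b:GFP), a reporter line with green fluorescent protein under wt1b control. Since the 24-month libraries, and no others, carry this reporter, strain and age cannot be told apart in them. Whether each came from 1 fish or a pool is not in the labels, so p-values measure only the spread between these libraries, which may be technical.

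Superoxide dismutases turn superoxide into hydrogen peroxide, which catalase, the glutathione peroxidases and the peroxiredoxins then reduce to water. Glutathione peroxidases draw their electrons from glutathione, which GCLC, GCLM and GSS build and GSR recycles, while most peroxiredoxins draw theirs from thioredoxin, which its reductases recycle with NADPH. Glutathione S-transferases couple glutathione to reactive compounds, and many of these genes are targets of the transcription factor Nrf2, which Keap1 holds in check. Skin meets oxidants from sunlight, from the water and from its own immune cells.

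The libraries held 18211821 counts at 5 months, 20070292 and 11833498 counts in 24-month replicates 1 and 2, and 20441260 counts at 30 months. Epidermal markers were detected in 16 to 18 of 18 members in each library and dermal markers in 7 of 7, so the labelled tissue is present. Levels are counts scaled to a common total (CPM) with TMM factors, in which 3 counts, the most that a count of 0 allows, equal 0.13 to 0.31 CPM per library, for counting error only. Tests used edgeR's quasi-likelihood method with Benjamini-Hochberg adjustment over all 21535 genes tested, called at an adjusted p of 0.05. In the comparisons of ages only the 24-month pair gives replicate spread (1 residual degree of freedom), edgeR replaces each gene's own spread by the trend over all genes, and the unreplicated ages are taken to spread in the same way. The slope over age has 2 residual degrees of freedom, from the scatter of all 4 libraries about the line. Log2 differences between 30 and 5 months, and between the 24-month replicates, have no test and are given for genes that averaged 5 CPM or more. In such bulk samples, fewer cells of a type and less RNA per cell cannot be told apart.

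Of the 62 genes, 58 were detected in all 4 libraries, 60 entered the tests and 51 averaged 5 CPM or more. The copy TXNRD2 (ENSDARG00000094470) had no count in any library, and SOD3 (ENSDARG00000070168) had 6 counts, all in 24-month replicate 1. To set one gene beside another, counts were divided by gene length and scaled to the same sum in each library (TPM), and on that scale 23 of the 62 lay among the top 10% of the 25486 genes with a level. The highest means were those of prdx5, at 896 TPM, gstp1.2, at 737 TPM, and TXNIP (ENSDARG00000036107), at 682 TPM, followed by TXN at 278 TPM and PRDX1 (ENSDARG00000025350) at 248 TPM. Below these lay GPX4, prdx6 and SOD1, at 160, 151 and 150 TPM, which are neighbours whose order changes between libraries. The mean levels of catalase and NQO1 were 40.4 and 24.5 TPM, those of GCLC and GSR 22.5 and 18.3 TPM, and those of the inducible gene SRXN1 and of gpx2 2.30 and 0.649 TPM. Together the 62 genes took 0.547% of the TPM at 5 months, 0.496% and 0.451% in 24-month replicates 1 and 2, and 0.455% at 30 months. Their summed CPM, with TMM factors, was 3193 at 5 months, 3298 and 3809 in 24-month replicates 1 and 2, and 4141 at 30 months. The direction of the sum over the libraries thus depends on the scale used.

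**Figure D1:**
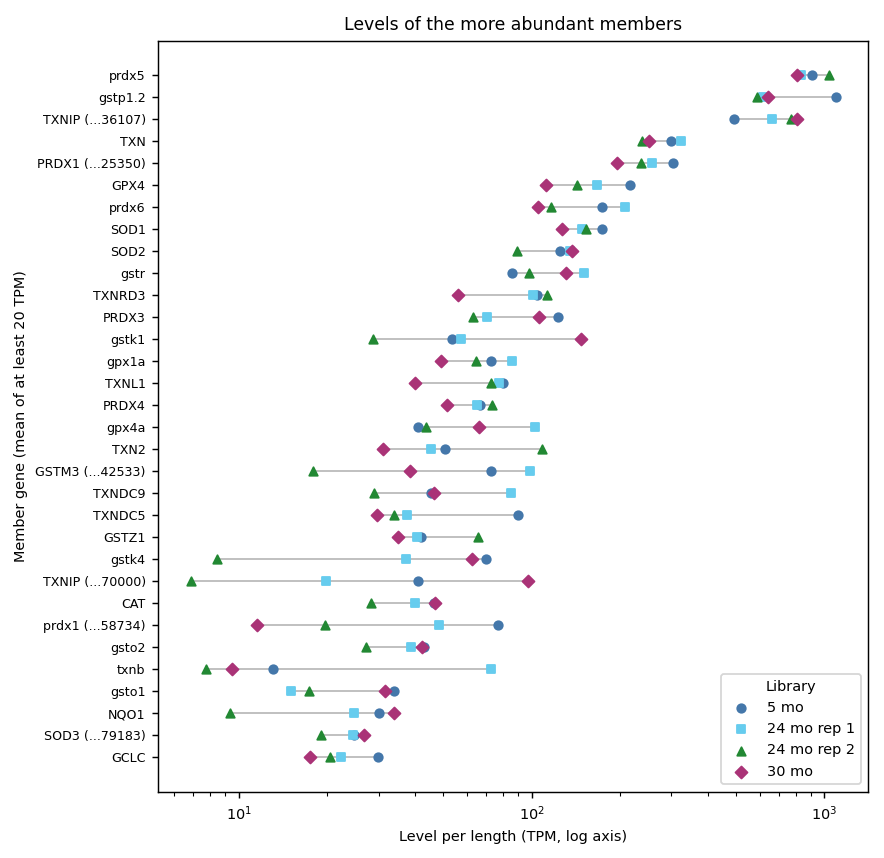
Level per length (TPM, log axis) of the genes with a mean of at least 20 TPM, ordered by their mean, with 1 point per library and a line over the range of the 4 libraries. The genes prdx5, gstp1.2 and TXNIP (ENSDARG00000036107) lie apart from the others, with means of 896, 737 and 682 TPM.

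Across ages, 1 of the 60 tested genes passed a test. Between 24 and 5 months edgeR called none, beside 0.125% of all genes, and none had an unadjusted p under 0.05, beside 2.03% of all genes; DESeq2 and limma-voom also called none. On the slope over age edgeR called none, with 0% of all genes called, and none had an unadjusted p under 0.05, beside 1.56% of all genes. DESeq2 and limma-voom called none on the slope either, and limma-voom gave 1 an unadjusted p under 0.05. Between 30 and 24 months edgeR called 1, which is 1.67% beside 0.683% of all genes (0.13% of all genes were called higher, as this one was), and 3 had an unadjusted p under 0.05, which is 5% beside 4.76% of all genes. These shares lie close to the background, so they are no result about the set as a whole. A p above the threshold does not show that levels were alike.

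The thioredoxin inhibitors carried both the call and the largest levels of the thioredoxin genes. TXNIP binds reduced thioredoxin and, in mammals, limits glucose uptake. Its copy TXNIP (ENSDARG00000070000) had 751 counts at 5 months, 433 and 80 counts in 24-month replicates 1 and 2, and 2316 counts at 30 months, or 36.1 CPM at 5 months, 18.8 and 8.28 CPM in 24-month replicates 1 and 2, and 122 CPM at 30 months. The 30-month library thus lay above all others and replicate 2 below all others. This copy was higher at 30 than at 24 months by 3.16 (SE 0.86, edgeR adjusted p = 0.0394) on the log2 scale. In that comparison age and strain cannot be told apart. Between 30 and 5 months, of the same strain, its log2 difference was 1.75, beside −1.17 between replicates 2 and 1. The call was lost under 6 of 7 other settings, with an adjusted p of 0.0511 with DESeq2's size factors, 0.086 with DESeq2 and up to 1, and held when the filter on low counts was dropped. With replicate 2 alone at 24 months the log2 difference was 3.88, and with replicate 1 alone it was 2.69. The second copy, TXNIP (ENSDARG00000036107), had 569.7 CPM at 5 months, 832 and 1224 CPM in 24-month replicates 1 and 2, and 1329 CPM at 30 months, in the order of age and with no overlap between the ages. Its log2 difference between 30 and 5 months was 1.22, beside 0.56 between replicates 2 and 1, and the slope was 0.48 (SE 0.39, edgeR adjusted p = 0.9999) per 10 months. This order held with DESeq2's size factors and with library totals alone, but under the last of these the difference between 30 and 5 months was 0.93, below the 2-fold limit. Per length, the second copy lay above the called one 12.0-fold at 5 months, 33.5-fold and 112-fold in 24-month replicates 1 and 2, and 8.28-fold at 30 months.

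The thioredoxin genes differed in how far they varied. TXN, the cytosolic form, had 137 CPM at 5 months, 161 and 150 CPM in 24-month replicates 1 and 2, and 164 CPM at 30 months, within 1.2-fold. The mitochondrial form TXN2 had 26.4 CPM at 5 months, 25.6 and 77.99 CPM in 24-month replicates 1 and 2, and 23 CPM at 30 months, high in replicate 2 alone. The copy txnb had 8.64 CPM at 5 months, 51.9 and 7.03 CPM in 24-month replicates 1 and 2, and 8.93 CPM at 30 months, high in replicate 1 alone, so the 24-month pair spanned all other values. Its log2 difference between 24 and 5 months was 1.77 (SE 1.17, edgeR adjusted p = 1), and it was 2.66 with replicate 1 alone and −0.30 with replicate 2 alone. The reductase gene TXNRD3 had 132 CPM at 5 months, 137 and 195 CPM in 24-month replicates 1 and 2, and 99.9 CPM at 30 months, highest in replicate 2 and lowest at 30 months. Summed over the 8 genes of thioredoxins, reductases and inhibitor the level was 913 CPM at 5 months, 1229 and 1670 CPM in 24-month replicates 1 and 2, and 1749 CPM at 30 months, most of it from the more abundant TXNIP copy.

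**Figure D2:**
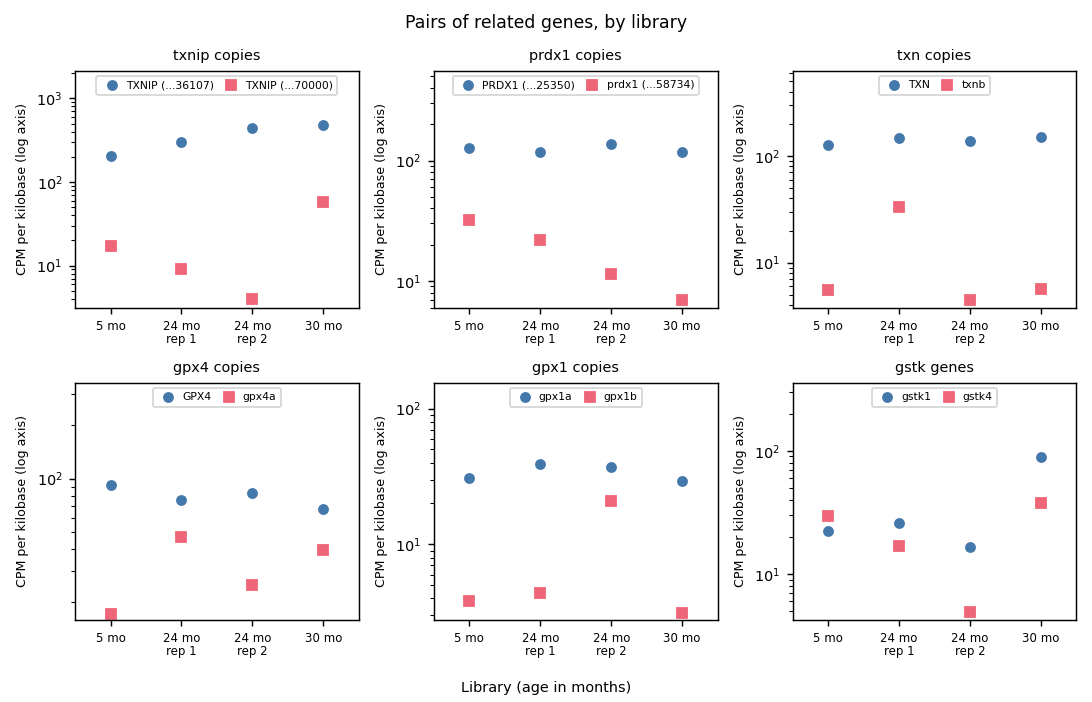
Levels per length (CPM per kilobase after TMM scaling, log axis) of 6 pairs of related genes in the 4 libraries, with 1 point per library. The called TXNIP copy is highest at 30 months, the second copy of prdx1 is lower in each older library, txnb stands high in replicate 1 alone and gpx1b in replicate 2 alone.

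The superoxide dismutases were among the steadier genes. SOD1, the cytosolic copper-zinc enzyme, had 91.5 CPM at 5 months, 84.3 and 111 CPM in 24-month replicates 1 and 2, and 94.98 CPM at 30 months, with the replicates of 24 months on both sides of the other ages. SOD2, the manganese enzyme of mitochondria, had 63.9 CPM at 5 months, 74.7 and 62.6 CPM in 24-month replicates 1 and 2, and 100.4 CPM at 30 months. The extracellular SOD3 (ENSDARG00000079183) had 14.8 CPM at 5 months, 15.8 and 15.7 CPM in 24-month replicates 1 and 2, and 22.8 CPM at 30 months. Both SOD2 and SOD3 were highest at 30 months, which lay above the whole 24-month pair, but neither passed: against 24 months the log2 difference was 0.55 (SE 0.84, edgeR adjusted p = 1) for SOD2 and 0.53 (SE 1.08, edgeR adjusted p = 1) for SOD3. All 3 were higher at 30 than at 5 months, as 52.9% of all genes were. The log2 differences were 0.65 for SOD2, 0.62 for SOD3 and 0.055 for SOD1, the last near the all-gene median of 0.059. With library totals alone, which move the all-gene median by −0.29, 2 of the 3 were higher. Catalase, the haem enzyme of peroxisomes, had 45.5 CPM at 5 months, 42.2 and 38.1 CPM in 24-month replicates 1 and 2, and 65.3 CPM at 30 months, again highest at 30 months, with a log2 difference against 24 months of 0.70 (SE 0.86, edgeR adjusted p = 1).

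Glutathione peroxidases were lower at 30 than at 5 months in 6 of the 7 that averaged 5 CPM or more (median log2 difference −0.32, beside 0.059 over all genes, of which 52.9% were higher). The count was the same with DESeq2's size factors and with library totals alone, which move the all-gene median by −0.29. Among the 6, gpx1a was lower by a log2 difference of −0.059 only. No glutathione peroxidase passed a test. GPX4, which reduces lipid peroxides in membranes and holds back ferroptosis, had 80.4 CPM at 5 months, 66.9 and 72.5 CPM in 24-month replicates 1 and 2, and 58.9 CPM at 30 months, highest at 5 and lowest at 30 months. Its copy gpx4a had 16.99 CPM at 5 months, 45.7 and 24.7 CPM in 24-month replicates 1 and 2, and 38.8 CPM at 30 months, lowest at 5 months, with a log2 difference of 1.18 between 30 and 5 months beside −0.88 between replicates 2 and 1. Its slope was 0.50 (SE 0.34, edgeR adjusted p = 0.9999) per 10 months. Per length GPX4 exceeded gpx4a 5.28-fold at 5 months, 1.64-fold and 3.27-fold in 24-month replicates 1 and 2, and 1.7-fold at 30 months.

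The cytosolic gpx1a had 43.4 CPM at 5 months, 55.3 and 52.9 CPM in 24-month replicates 1 and 2, and 41.7 CPM at 30 months, within 1.33-fold. Its copy gpx1b had 3.31 CPM at 5 months, 3.82 and 18 CPM in 24-month replicates 1 and 2, and 2.73 CPM at 30 months, so replicate 2 stood above every other library. The secreted form gpx3 had 21.3 CPM at 5 months, 11.4 and 4.55 CPM in 24-month replicates 1 and 2, and 17.01 CPM at 30 months, lowest in replicate 2. The log2 difference of gpx1b between 30 and 24 months was −1.99 (SE 1.59, edgeR adjusted p = 1), and it was −2.72 with replicate 2 alone and −0.49 with replicate 1 alone. The remaining genes gpx2 and gpx9 stayed below 1 CPM in all libraries.

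GPX7 and GPX8, peroxidases of the endoplasmic reticulum, differed more between 30 and 5 months. GPX7 had 9.84 CPM at 5 months, 2.52 and 9.31 CPM in 24-month replicates 1 and 2, and 1.73 CPM at 30 months, with a log2 difference of −2.43 between 30 and 5 months beside 1.84 between replicates 2 and 1. GPX8 had 11.8 CPM at 5 months, 8.39 and 4.66 CPM in 24-month replicates 1 and 2, and 4.095 CPM at 30 months, with −1.50 between 30 and 5 months beside −0.83 between the replicates. Both were lower in every older library than at 5 months, and lowest at 30 months. This order was lost for GPX7 with DESeq2's size factors and for GPX8 with library totals alone.

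The peroxiredoxins and sulfiredoxin summed to 689 CPM at 5 months, 650.1 and 841 CPM in 24-month replicates 1 and 2, and 739 CPM at 30 months. The thioredoxin-dependent peroxidase prdx5 had 332 CPM at 5 months, 326 and 518 CPM in 24-month replicates 1 and 2, and 418 CPM at 30 months, highest in replicate 2. PRDX1 (ENSDARG00000025350), the main cytosolic form, had 130.2 CPM at 5 months, 119.6 and 139.7 CPM in 24-month replicates 1 and 2, and 119 CPM at 30 months, within 1.17-fold. The second copy, prdx1 (ENSDARG00000058734), had 44.2 CPM at 5 months, 30.1 and 15.6 CPM in 24-month replicates 1 and 2, and 9.45 CPM at 30 months, so every older library lay below 5 months and 30 months lay below both replicates. Its log2 difference between 30 and 5 months was −2.21, beside −0.94 between the replicates, and the slope was −0.73 (SE 0.36, edgeR adjusted p = 0.9999) per 10 months. Per length, PRDX1 exceeded this copy 3.96-fold at 5 months, 5.33-fold and 12.0-fold in 24-month replicates 1 and 2, and 16.9-fold at 30 months. How counting divided reads between such copies is not given in the sources used here, so levels of single copies are uncertain.

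The mitochondrial PRDX3 had 79.4 CPM at 5 months, 48.8 and 55.8 CPM in 24-month replicates 1 and 2, and 96.5 CPM at 30 months, lowest in the 24-month pair and highest at 30 months, with a log2 difference against 24 months of 0.88 (SE 0.84, edgeR adjusted p = 1). PRDX4, which works in the endoplasmic reticulum, had 29.2 CPM at 5 months, 30.8 and 44.2 CPM in 24-month replicates 1 and 2, and 32.1 CPM at 30 months. The gene prdx6, whose product is a 1-Cys enzyme that uses glutathione, had 72.96 CPM at 5 months, 94.3 and 66.8 CPM in 24-month replicates 1 and 2, and 62.8 CPM at 30 months. Neither PRDX4 nor prdx6 set the ages apart, because the 24-month pair lay on both sides of 30 months for PRDX4 and of 5 months for prdx6. SRXN1, the sulfiredoxin that repairs overoxidised peroxiredoxins, stayed below 1.25 CPM, with 26 counts at 5 months, 16 and 7 counts in 24-month replicates 1 and 2, and 6 counts at 30 months.

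Glutathione S-transferases, the largest group with 18 genes, split in both directions. Of 14 that averaged 5 CPM or more, 8 were higher and 6 lower at 30 than at 5 months. Of all genes, 52.9% were higher, so the split lies near the background. With library totals alone, which move the all-gene median by −0.29, 6 transferases were higher and 8 lower. The pi-class gene gstp1.2 had 413 CPM at 5 months, 251 and 305 CPM in 24-month replicates 1 and 2, and 344 CPM at 30 months, highest at 5 months. The rho-class gene gstr, a class found in fish, had 80.02 CPM at 5 months, 152 and 126 CPM in 24-month replicates 1 and 2, and 174 CPM at 30 months, so every older library lay above 5 months and 30 months lay above the pair. Between 30 and 5 months the log2 difference was 1.12, which became 0.82 with library totals alone.

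The kappa-class genes gstk1 and gstk4 had the lowest p-values of the transferases. In mammals the kappa enzyme resides in mitochondria and peroxisomes. The gene gstk1 had 34.95 CPM at 5 months, 40.5 and 25.9 CPM in 24-month replicates 1 and 2, and 137 CPM at 30 months, and gstk4 had 60.9 CPM at 5 months, 35.02 and 10.1 CPM in 24-month replicates 1 and 2, and 77.4 CPM at 30 months. In both the 30-month library lay at least 2-fold above each 24-month library, but the 5-month library lay near the replicates for gstk1 and near 30 months for gstk4. The log2 difference between 30 and 24 months was 2.05 (SE 0.83, edgeR adjusted p = 0.567) for gstk1 and 1.77 (SE 0.85, edgeR adjusted p = 0.896) for gstk4, so neither passed. For gstk4 the difference was 2.93 with replicate 2 alone at 24 months and 1.15 with replicate 1 alone. With the called TXNIP copy these were the 3 of 51 genes at least 2-fold higher at 30 months than in both 24-month libraries, which is 5.88% beside 7.62% of all genes.

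As a sum, muscle markers were higher at 30 months than in both 24-month libraries, like TXNIP (ENSDARG00000070000), gstk1 and gstk4. The marker sum was nearly as high at 5 months. It was 14270 CPM at 5 months, 6473 and 6466 CPM in 24-month replicates 1 and 2, and 15240 CPM at 30 months, with 6, 6, 5 and 6 of 6 markers detected in that order and myhz1.1 at 0 in replicate 2. Most of it at 30 months was creatine kinase, with ckma at 3477 CPM at 5 months, 2757 and 2976 CPM in 24-month replicates 1 and 2, and 7567 CPM at 30 months, whereas pvalb2 had 4631 CPM at 5 months, 626 and 168 CPM in 24-month replicates 1 and 2, and 79.4 CPM at 30 months. By gene, ckma, ckmb and myhz2 were higher at 30 months than in both 24-month libraries, and pvalb1, pvalb2 and myhz1.1 were not. Unlike the sum, ckma and ckmb were well below their 30-month level at 5 months, ckmb with 3940 CPM against 7500 CPM. The part of muscle RNA in these differences was not tested.

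Of the 14 transferases that averaged 5 CPM or more, gstk4 and 4 others lay at least 2-fold apart in the 24-month pair. Of all genes, 40.5% did, so this is no result about the transferases as a group. Of the mu-class genes, GSTM3 (ENSDARG00000042533) had 41.04 CPM at 5 months, 59.9 and 13.9 CPM in 24-month replicates 1 and 2, and 30.9 CPM at 30 months, and GSTM3 (ENSDARG00000088116) had 19.7 CPM at 5 months, 18.3 and 0.724 CPM in 24-month replicates 1 and 2, and 9.03 CPM at 30 months. The second was at 7 counts in replicate 2, which made it the gene with the widest range of the 51, 23.7-fold. The theta-class gene gstt1b had 7.34 CPM at 5 months, 8.995 and 2.17 CPM in 24-month replicates 1 and 2, and 9.398 CPM at 30 months, lowest in replicate 2 as well. GSTZ1, which serves the breakdown of tyrosine, had 19.6 CPM at 5 months, 20.5 and 42.1 CPM in 24-month replicates 1 and 2, and 23.2 CPM at 30 months, highest in replicate 2. Beside these genes, liver markers had a summed 153 CPM at 5 months, 636 and 2.28 CPM in 24-month replicates 1 and 2, and 154 CPM at 30 months, with 7, 7, 5 and 7 of 7 markers detected and FGB and apoa2 at 0 in replicate 2. Germ cell and testis markers had a summed 913 CPM at 5 months, 821 and 3.83 CPM in 24-month replicates 1 and 2, and 15.96 CPM at 30 months, with 10, 10, 4 and 8 of 10 markers detected. Of these, PIWIL1, PIWIL2, DMC1, TDRD1, SYCP3 and insl3 were at 0 in replicate 2, and STAR and insl3 at 30 months. Kidney tubule markers had a summed 256 CPM at 5 months, 6.34 and 0.621 CPM in 24-month replicates 1 and 2, and 2.26 CPM at 30 months, with 6, 6, 2 and 5 of 6 markers detected; pdzk1, CDH17, SLC13A3 and SLC12A3 were at 0 in replicate 2, and SLC12A3 at 30 months. Their part in the low values of replicate 2 was not tested.

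GCLC, GCLM and GSR, the members that make or recycle glutathione, were highest at 5 months in all 3 cases, beside 20.9% of all genes. All 3 were lower at 30 than at 5 months, whereas 52.9% of all genes were higher. This held under each of the 3 scalings, but library totals alone move the all-gene median by −0.29. None of the 3 passed a test. GCLC, the catalytic subunit of the rate-limiting ligase, had 38.4 CPM at 5 months, 30.9 and 36.1 CPM in 24-month replicates 1 and 2, and 31.9 CPM at 30 months, a range of 1.24-fold. GCLM, its modifier subunit, had 10.1 CPM at 5 months, 8.34 and 6.52 CPM in 24-month replicates 1 and 2, and 3.31 CPM at 30 months, in falling order over the ages, with a log2 difference of −1.58 between 30 and 5 months beside −0.35 between the replicates. GSR, glutathione reductase, had 38.2 CPM at 5 months, 28.5 and 16.3 CPM in 24-month replicates 1 and 2, and 20.7 CPM at 30 months, with the pair on both sides of 30 months. On the slope per 10 months, GCLM stood at −0.47 (SE 0.46, edgeR adjusted p = 0.9999) and GSR at −0.37 (SE 0.31, edgeR adjusted p = 0.9999).

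The haem oxygenase and quinone reductase genes, of which HMOX1 and NQO1 are common readouts of Nrf2, showed no order over age. NQO1 had 22.2 CPM at 5 months, 19.6 and 9.41 CPM in 24-month replicates 1 and 2, and 35.4 CPM at 30 months, with a log2 difference between 30 and 24 months of 1.28 (SE 1.01, edgeR adjusted p = 1). HMOX1, the inducible enzyme that opens haem, had 15.4 CPM at 5 months, 15.9 and 4.45 CPM in 24-month replicates 1 and 2, and 11.9 CPM at 30 months, so 3 libraries lay close and replicate 2 was low. Between 24 and 5 months the log2 difference was −0.59 (SE 1.19, edgeR adjusted p = 1), and it was −1.79 with replicate 2 alone and 0.12 with replicate 1 alone. The gene hmox2b had 5.904 CPM at 5 months, 3.09 and 9.102 CPM in 24-month replicates 1 and 2, and 4.78 CPM at 30 months.

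Of the thioredoxin-domain and thioredoxin-like genes that averaged 5 CPM or more, 7 of 8 were lower at 30 than at 5 months (median −0.59, beside 0.059 over all genes, of which 52.9% were higher). The count was the same under all 3 scalings, of which library totals alone move the all-gene median by −0.29. TXNDC5, a protein disulfide isomerase of the endoplasmic reticulum, had 123 CPM at 5 months, 55.2 and 63.3 CPM in 24-month replicates 1 and 2, and 57.2 CPM at 30 months, so all older libraries lay together at about the same level below 5 months. Its log2 difference between 30 and 5 months was −1.10, beside 0.20 between the replicates, and between 24 and 5 months it was −1.05 (SE 0.84, edgeR adjusted p = 1). The gene txndc11, whose product also lies in the endoplasmic reticulum and assists the dual oxidases of the thyroid, had 20.8 CPM at 5 months, 15.2 and 22.9 CPM in 24-month replicates 1 and 2, and 5.09 CPM at 30 months, so 30 months lay below all other libraries. Its log2 difference between 30 and 24 months was −1.90 (SE 1.24, edgeR adjusted p = 1), and it was the 1 gene of 51 at least 2-fold lower at 30 months than in both 24-month libraries, which is 1.96% beside 5.01% of all genes. TXNDC9, a partner of chaperonins, had 39.1 CPM at 5 months, 79.4 and 34.2 CPM in 24-month replicates 1 and 2, and 56.8 CPM at 30 months, the exception to the direction. The symbol prefix also takes in txnl4a, a splicing factor and no antioxidant enzyme, which had 15.2 CPM at 5 months, 9.69 and 3.72 CPM in 24-month replicates 1 and 2, and 5.04 CPM at 30 months.

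The genes of the endoplasmic reticulum, grouped after their values were seen, are GPX7, GPX8, PRDX4, TXNDC5, txndc11, TXNDC12 and TXNDC16. Their summed level was 222 CPM at 5 months, 127 and 159 CPM in 24-month replicates 1 and 2, and 121 CPM at 30 months. Of the 7, 6 were lower at 30 than at 5 months (median −1.1, beside 0.059 over all genes, of which 52.9% were higher). With library totals alone, which move the all-gene median by −0.29, all 7 were lower. The type I collagen gene COL1A1, the main secreted load of dermal fibroblasts, had 14840 CPM at 5 months, 1729 and 25110 CPM in 24-month replicates 1 and 2, and 2790 CPM at 30 months. The dermal marker list summed to 42380 CPM at 5 months, 4781 and 63260 CPM in 24-month replicates 1 and 2, and 7800 CPM at 30 months, with 7 of 7 markers detected and none at 0, but most of that sum is collagen, COL1A1 included. Its 3 members that are no collagen, LUM, DCN and PDGFRA, summed to 706 CPM at 5 months, 517 and 623 CPM in 24-month replicates 1 and 2, and 716 CPM at 30 months and did not follow COL1A1. GPX7, txndc11, TXNDC16, PRDX4 and TXNDC5 stood higher in replicate 2 than in replicate 1, as collagen and 55.8% of all genes did, whereas GPX8 and TXNDC12 stood lower there. For TXNDC5 the log2 difference was 0.20, far smaller than that of collagen. With library totals alone 4 of the 7 stood higher in replicate 2. The part of dermal cells in these differences was not tested.

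**Figure D3:**
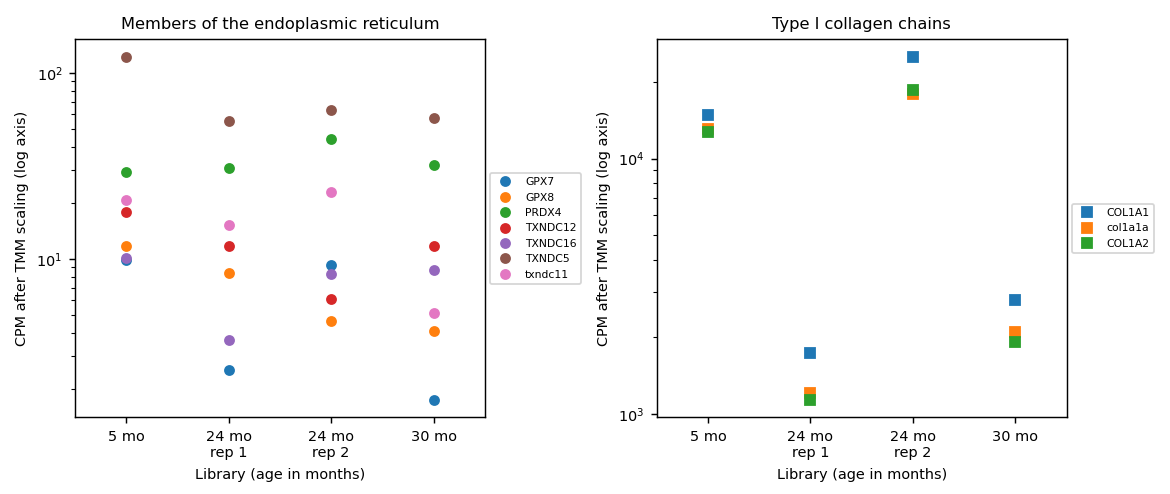
Left, CPM after TMM scaling (log axis) of the 7 genes of the endoplasmic reticulum in the 4 libraries; right, the same for 3 type I collagen genes, with 1 point per library. GPX7 has 9.84 CPM at 5 months, 2.52 and 9.31 CPM in the 24-month replicates and 1.73 CPM at 30 months, and COL1A1 is high at 5 months and in replicate 2. Other genes on the left differ from GPX7. GPX8 and TXNDC12 are lower in replicate 2 than in replicate 1, TXNDC5 is near the same level in both, and PRDX4 is higher at 30 than at 5 months.

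Between 30 and 5 months, the ages of the same strain, 13 of the 51 genes (25.5%) lay at least 2-fold apart, beside 27% of 13182 genes. Higher at 30 months were 5 (9.8%, beside 12.2%): both TXNIP copies, gpx4a, gstk1 and gstr. Lower were 8 (15.7%, beside 14.8%): GCLM, GPX7, GPX8, GSTM3 (ENSDARG00000088116), TXNDC5, prdx1 (ENSDARG00000058734), txndc11 and txnl4a. The shares lie near those of all genes. The difference also exceeded that of the 24-month pair for all 5 of the higher genes, which are 9.8% of the 51, beside 9.22% of all genes. It did so for 7 of the lower (13.7% of the 51, beside 9.49% of all genes), the exception being GSTM3. The share of the higher genes lies near that of all genes. The median of the 51 was −0.20, beside 0.059 over all genes, and 22 of them (43.1%) were higher, beside 52.9%. With library totals alone 2 were at least 2-fold higher and 9 lower, and under that scaling the all-gene median moves by −0.29 for this comparison and by −0.49 for the replicates.

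**Figure D4:**
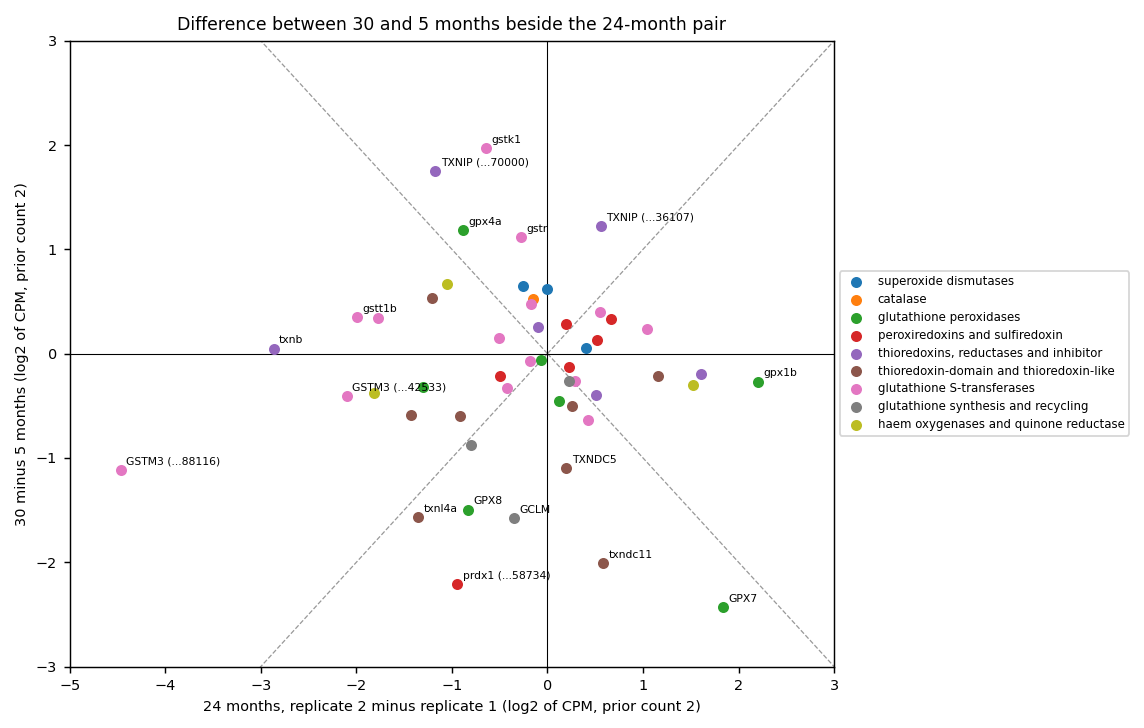
Log2 difference between 30 and 5 months (vertical) against that between 24-month replicates 2 and 1 (horizontal) for the 51 genes, coloured by role, with dashed lines where both are of equal size. The genes gstk1, both TXNIP copies, gpx4a and gstr lie above, and prdx1 (ENSDARG00000058734), txndc11, GPX7 and GCLM below, beyond the dashed lines, while GSTM3 (ENSDARG00000088116), txnb and gpx1b lie far out to the sides.

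More of the genes lay 2-fold apart within the 24-month pair than between 30 and 5 months. Of the 51 genes, 18 (35.3%, beside 40.5% of all genes) lay at least 2-fold apart between the replicates, 6 higher in replicate 2 (11.8%, beside 20.1%) and 12 lower (23.5%, beside 20.4%). None of the 51 lay at least 2-fold above 5 months in both replicates, beside 3.72% of all genes, and none at least 2-fold below, beside 4.42%. In the order of age, 4 genes were higher at each step, SOD3 (ENSDARG00000079183), TXN, TXNIP (ENSDARG00000036107) and gstr (7.84%, beside 5.67%). In the same way 5 were lower at each step, GCLM, GPX4, GPX7, GPX8 and prdx1 (ENSDARG00000058734) (9.8%, beside 6.77%). With DESeq2's size factors SOD2 joined and TXN left the rising order, and GPX7 left the falling order. With library totals alone 1 gene, TXNIP (ENSDARG00000036107), was in rising order and 8 were in falling order. The 5-month library was the highest of the 4 for 18 genes (35.3%, beside 20.9%), and replicate 2 the lowest for 20 (39.2%, beside 30%). The 5-month library also stood apart in markers of other tissues: erythrocyte markers had a summed 579 CPM at 5 months, 118 and 89.1 CPM in 24-month replicates 1 and 2, and 136 CPM at 30 months, with 5 of 5 detected and none at 0 in any library, and the kidney tubule sum given above was 256 CPM there. Their part in the high values of 5 months was not tested. Within 2-fold over all 4 libraries lay 21 genes (41.2%, beside 29.1%), among them the more abundant TXN, PRDX1 (ENSDARG00000025350), prdx5, gstp1.2, SOD1 and GPX4. The median level of the 61 members with a length was 23.8 TPM, beside 15.8 TPM over all genes that averaged 5 CPM or more. The part of level in this share was not tested.

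**Figure D5:**
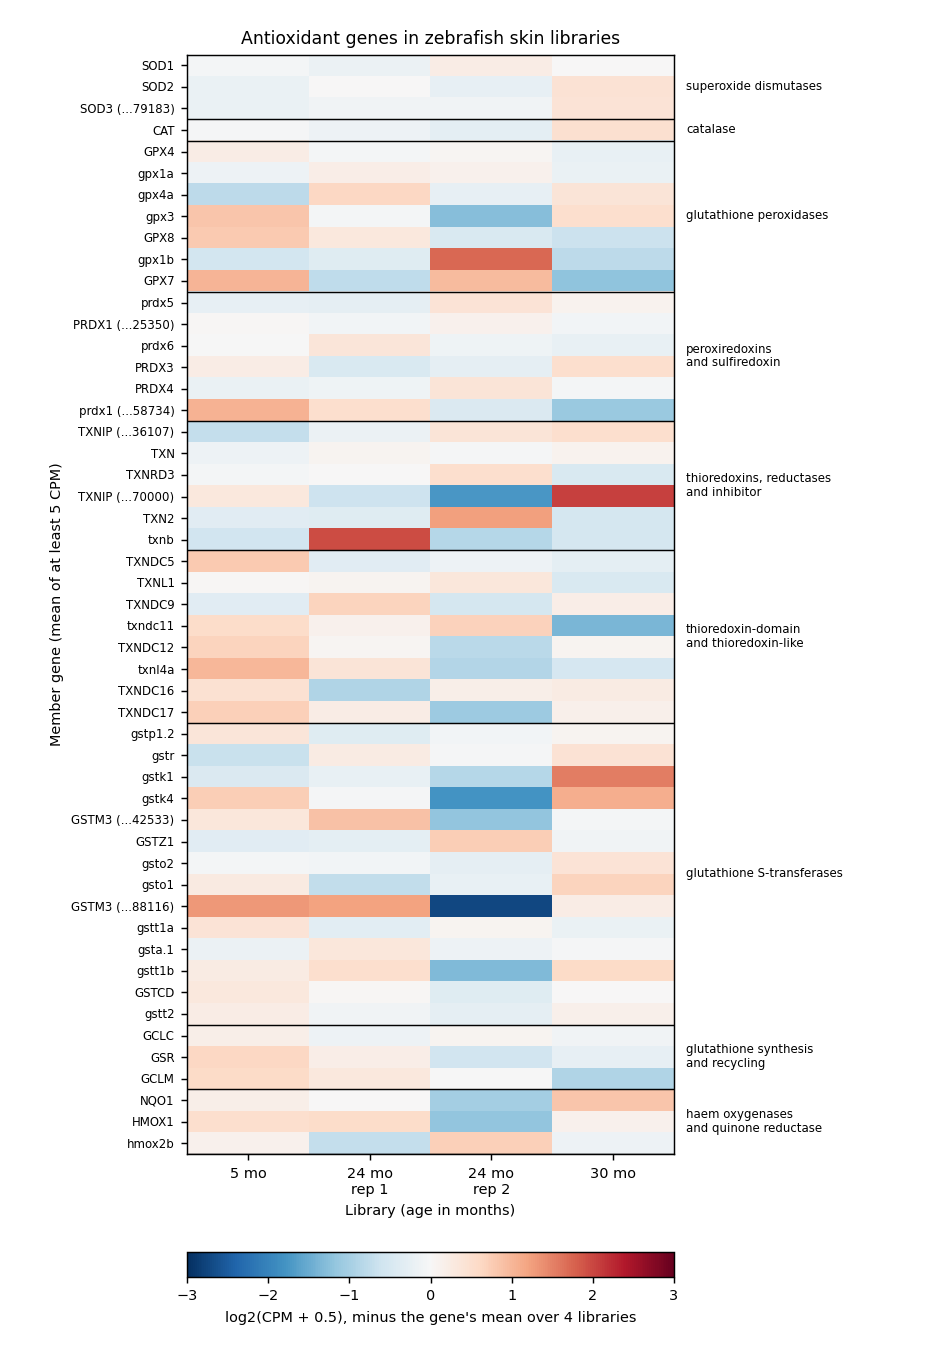
Log2(CPM + 0.5) of the 51 genes that averaged 5 CPM or more, minus each gene's mean over the 4 libraries, in rows by role and columns by library. The palest rows include PRDX1 (ENSDARG00000025350), TXN and GCLC, and the strongest colours fall on the called TXNIP copy at 30 months and on GSTM3 (ENSDARG00000088116) in replicate 2.

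Among 80 other genes of the pathway, 77 were tested and none was called between 24 and 5 months, between 30 and 24 months or on the slope by edgeR, DESeq2 or limma-voom. By edgeR, 2 (2.6%, beside 2.03% of all genes), 5 (6.49%, beside 4.76%) and 3 (3.9%, beside 1.56%) of them had an unadjusted p under 0.05 in these comparisons. Of the regulators, NFE2L2, the human-style symbol of the Nrf2 gene, had 99.9 CPM at 5 months, 128 and 221 CPM in 24-month replicates 1 and 2, and 104 CPM at 30 months, and the inhibitor keap1a had 64.9 CPM at 5 months, 56.3 and 146 CPM in 24-month replicates 1 and 2, and 43.1 CPM at 30 months. Both were highest in replicate 2, as 39.1% of all genes were. HMOX1 and NQO1 were lowest there, as 30% of all genes were. Of the 51 members that averaged 5 CPM or more, 11 (21.6%) were highest and 20 (39.2%) lowest in replicate 2. In glutathione supply, CTH (ENSDARG00000074301), which yields cysteine, had 46.6 CPM at 5 months, 21.9 and 18 CPM in 24-month replicates 1 and 2, and 9.24 CPM at 30 months, in falling order over the ages, with a slope of −0.82 (SE 0.32, edgeR adjusted p = 0.9999) per 10 months. GSS, glutathione synthetase, had 6.67 CPM at 5 months, 10.99 and 28.1 CPM in 24-month replicates 1 and 2, and 1.103 CPM at 30 months, lowest at 30 months, with a log2 difference against 24 months of −4.14 (SE 1.55, edgeR adjusted p = 0.387).

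Genes listed under NADPH supply, a list that also holds TALDO1 and TKT, were lower at 30 than at 5 months in 8 of the 11 that averaged 5 CPM or more. Their median was −0.89, beside 0.059 over all genes, of which 52.9% were higher. The 3 higher ones, outside the naming rule, were IDH2, with a log2 difference of 2.06, nnt2, with 1.58, and ME3, with 0.83. IDH2 was the most abundant gene of the list by mean CPM, at 1085 CPM. Over all 60 pathway genes at that level, 26 were higher and 34 lower (median −0.14). The medians of the lists ran from −0.89 for NADPH supply to 0.84 for glutaredoxins and methionine sulfoxide reductases. PGD, of the pentose phosphate pathway, had 222 CPM at 5 months, 126 and 329 CPM in 24-month replicates 1 and 2, and 54.3 CPM at 30 months, with a log2 difference between 30 and 24 months of −2.07 (SE 1, edgeR adjusted p = 0.933). MSRB1 (ENSDARG00000025436), which repairs oxidised methionine, had 8.21 CPM at 5 months, 6.21 and 1.66 CPM in 24-month replicates 1 and 2, and 26.8 CPM at 30 months, highest at 30 months, with 2.75 (SE 1.21, edgeR adjusted p = 0.732). Of the genes for the phagocyte oxidase, which makes superoxide, cybb had 16.6 CPM at 5 months, 91.9 and 15.7 CPM in 24-month replicates 1 and 2, and 12.6 CPM at 30 months and NCF1 had 9.601 CPM at 5 months, 95.3 and 25.2 CPM in 24-month replicates 1 and 2, and 8.56 CPM at 30 months, both highest in replicate 1. Beside them, macrophage markers had a summed 935 CPM at 5 months, 3091 and 5482 CPM in 24-month replicates 1 and 2, and 2229 CPM at 30 months, with 14 of 14 detected in each library and none at 0, and neutrophil markers had 169.7 CPM at 5 months, 182 and 83.8 CPM in 24-month replicates 1 and 2, and 64.95 CPM at 30 months, with 5 of 5 detected. NCF1 is itself one of these neutrophil markers, and the other 4 summed to 160.1 CPM at 5 months, 86.99 and 58.6 CPM in 24-month replicates 1 and 2, and 56.4 CPM at 30 months, highest at 5 months. In every library cd74a made up most of the macrophage sum, and like cd74b it peaked in replicate 2, at 3821 CPM. By contrast, marco, c1qa, c1qb and c1qc peaked in replicate 1, as cybb and NCF1 did, with marco at 58.9 CPM there. Other macrophage markers were split: csf1ra peaked in replicate 2, csf1rb at 5 months, and the MFAP4 copies did not share 1 peak. The part of macrophages and neutrophils in the oxidase values was not tested.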

How the data were processed

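Skin RNA of male zebrafish was sequenced in 4 libraries, from mRNA kits per the labels' protocols. The submitters' processing notes name CASAVA 1.7, STAR 2.4.1d, featureCounts 1.4.6-p4 and GRCz10; annotation release and strand setting are not stated there, so reads from overlapping genes, or from opposite strands, may be mixed. The deposited counts are whole reads per gene by the authors. The other deposited table bears the name RPKM but was used as a score: the library totals used in it change with the row number in a period of 24 rows and range from 0.391 to 2.05 times a library's own total. Gene lengths were recovered from it by solving for those totals, for 61 of the 62 members, and served only for TPM, TPM ratios and CPM per kilobase. Symbols were at hand for 26269 genes, and 11 members share a symbol and are named with their identifier.

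Tests used edgeR 4.0.16 in R 4.3.3 with TMM (factors 1.14, 1.15, 0.817 and 0.932), filterByExpr and glmQLFTest on group means and on age (log2 per 10 months), with all 4 libraries; the design was set here. The scripts were tested on simulated data. Without a test, log2 differences of CPM used a prior count of 2, a minimum mean of 5 CPM and a 2-fold limit. Alternatives were DESeq2 1.42.0, limma-voom 3.58.1, other scalings, filters and limits, and each replicate left out.

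Members and lists were chosen with earlier results of these data known. Named by rule were called members; in each role the most abundant member and the 2 with the smallest p; the 6 largest differences between 30 and 5 months beyond the pair and the 6 largest in the pair; genes in order of age and 2-fold apart; and, of the pathway list, the 6 smallest p-values, keap1a and nfe2l2a, for which the symbol NFE2L2 was taken. Other genes given with values were chosen after their values were seen.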

Additional observations from a re-analysis of the deposited data

How the results depend on the processing

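Between 24 and 5 months edgeR called 27 genes, against 0 with library totals alone, 0 with a minimum mean of 5 CPM, 3 with limma-voom and 0 with the newer edgeR dispersion setting, an alternative chosen after seeing the data. Between 30 and 24 months it called 147, against 2, 0, 7 and 1 under the same settings and 77 with DESeq2. The 1 member called there, TXNIP (ENSDARG00000070000), became 0 members with DESeq2's size factors, library totals alone, a minimum mean of 5 CPM, DESeq2, limma-voom and the newer edgeR setting; its log2 difference stayed between 3.00 and 3.16 under these and was 2.69 to 3.88 with 1 replicate left out. On the slope 0 genes were called, but 27 with DESeq2, and 0 to 361 with 1 replicate left out, the 361 without 24-month replicate 1; none was a member. Between 30 and 5 months 3559 genes lay past 2-fold, 9254 with no minimum mean and 6398 past 1.5-fold; in the pair 5339, 12497 and 8252. The cause was not tested.

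No other named member changed its call in a test, and no called value reversed, in the alternatives run. Without a test, between 30 and 5 months, library totals alone took the members at least 2-fold higher from 5 to 2. Those at least 2-fold lower went from 8 to 9. Among those that fell below the limit were gstr, at 0.82, and TXNIP (ENSDARG00000036107), at 0.93. Group comparisons without a 24-month replicate have no residual degree of freedom and are values without a test. No paired analysis was possible because only the 24-month group has more than 1 library, and its replicate numbers follow the order of deposit. With the deposited RPKM-named values as they stand, 26 members lay in the top 10% by level, against 23. In replicate 2, of 11833498 counts, a gene at 5 CPM rests on fewer counts than in the other libraries, and members near 1 CPM on a few counts only.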

Other observations

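Further genes of the pathway list, chosen after their values were seen and none called, had wide ranges. IDH2, the mitochondrial enzyme that makes NADPH from isocitrate, had 578 CPM at 5 months, 722 and 629.6 CPM in 24-month replicates 1 and 2, and 2408 CPM at 30 months, and nnt2, a copy of the mitochondrial transhydrogenase, had 204 CPM at 5 months, 158 and 250.3 CPM in 24-month replicates 1 and 2, and 609 CPM at 30 months, both highest at 30 months. The cytosolic counterpart IDH1 had 337 CPM at 5 months, 144 and 149 CPM in 24-month replicates 1 and 2, and 113 CPM at 30 months, and the other transhydrogenase copy NNT had 296 CPM at 5 months, 115 and 111 CPM in 24-month replicates 1 and 2, and 114 CPM at 30 months, both highest at 5 months. The log2 difference between 30 and 5 months was −1.58 for IDH1 and −1.38 for NNT. Beside these, the 4 members placed in mitochondria, PRDX3, SOD2, TXN2 and gstk1, also grouped after their values were seen, had a summed 205 CPM at 5 months, 190 and 222 CPM in 24-month replicates 1 and 2, and 357 CPM at 30 months. Of these 4, gstk1 rose most, from 34.95 CPM at 5 months to 137 CPM at 30 months, and TXN2 was lowest at 30 months. The group leaves out prdx5, which was highest in replicate 2, and TXNRD2 (ENSDARG00000075923), which averaged below 5 CPM. This TXNRD2 copy had 3.22 CPM at 5 months, 3.00 and 7.97 CPM in 24-month replicates 1 and 2, and 2.47 CPM at 30 months. Muscle markers had a summed 14270 CPM at 5 months, 6473 and 6466 CPM in 24-month replicates 1 and 2, and 15240 CPM at 30 months. The part of muscle RNA was not tested.

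CHAC1, which degrades glutathione, had 492 CPM at 5 months, 823 and 2188 CPM in 24-month replicates 1 and 2, and 642 CPM at 30 months, highest in replicate 2. The selenium carrier selenop had 347 CPM at 5 months, 372 and 376 CPM in 24-month replicates 1 and 2, and 736 CPM at 30 months, and the ferritin heavy chain fth1a had 1098 CPM at 5 months, 1195 and 1603 CPM in 24-month replicates 1 and 2, and 1955 CPM at 30 months, both highest at 30 months and above 5 months in every older library. Of all genes, 25.5% were highest at 30 months and 23.3% lay above 5 months in every older library.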
